A study of Rattus norvegicus with 4 samples.

Results

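Lysosomal hydrolases, their activator proteins and lysosomal membrane proteins were followed in HSC-T6, a rat line of immortalised hepatic stellate cells, with and without ginsenoside Rk1, a saponin of processed ginseng. The set was given as 35 gene symbols, and members were the rows of the deposited count table that carry one of them. Of the 32883 genes in the table, 33 matched, 1 row per symbol, and all 33 were abundant enough to be tested. Expression of Hgsnat and Sgsh, which encode heparan sulfate enzymes, was not analysed here. The members were 22 glycan and lipid enzymes or activators, 3 other soluble proteins and 8 membrane proteins.

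The study has 4 total RNA libraries, 2 from untreated HSC-T6 cells and 2 from HSC-T6 cells given Rk1 (treatment GRK1 in the labels). All 4 come from the same cell line, and dose, duration and vehicle are not in the labels. The labels do not say whether both libraries of a group were grown as separate cultures, and p-values therefore cover only library-to-library spread, possibly technical. Every group has n = 2. The design asks which transcripts differ after Rk1.

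Lysosomes are acidic organelles in which hydrolases take glycans, lipids and proteins apart step by step, with many enzymes removing an end group so that the next can act. Loss of a single enzyme can stop its pathway and cause a lysosomal storage disease. Most hydrolases are soluble and reach the organelle through a mannose 6-phosphate tag, whereas heavily glycosylated membrane proteins line the lysosomal membrane, carry transporters and channels and shield it from digestion. TFEB and its relatives TFE3 and MITF are transcription factors that switch on many of these genes together, through the E-box CACGTG in their promoters. In stellate cells, which lay down collagen in liver fibrosis, lysosomes take part in the breakdown of endocytosed matrix and stored lipid.

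Library totals ranged from 18008586 to 20430930 counts, so 3 counts in a library correspond to 0.148 to 0.167 CPM, counts scaled to library size by TMM factors. Some transcripts of the line's own lineage were abundant and others were low or absent. Col1a1 was at 12485 and 11615 CPM untreated and 8065 and 7969 CPM with Rk1. Untreated, Col3a1 was at 4938 and 4752 CPM and Vim at 1273 and 1279 CPM. Acta2 had 73 and 56 counts untreated, Gfap 80 and 55 and Hand2 1 in each. Lrat, Reln and Rgs5, which mark stellate cells or pericytes in tissue, had 0 counts in every library. Of 16 macrophage markers, examined because macrophages are rich in lysosomal transcripts, 15 stayed under 20 counts in every library and 10, among them Ptprc and Adgre1, had 0 counts in all 4. The exception was Cd14, at 916 and 765 counts untreated and 975 and 982 counts with Rk1 (log2 fold change 0.31 ± 0.05 SE, adjusted p = 0.0076). The list summed to 43.4 to 46.4 CPM untreated and 54.9 to 55.5 CPM with Rk1, nearly all of it Cd14. Of 10 hepatocyte markers, 7 had 0 counts throughout and the sum stayed below 0.330 CPM. Endothelial markers summed to at most 2.58 CPM in any library, with Kdr, Stab2 and Lyve1 at 0 counts. Cholangiocyte markers summed to 1707 to 1720 CPM untreated and 1285 to 1293 CPM with Rk1, nearly all of it Spp1. Sox9, on the same list, fell from 147 and 161 counts to 44 and 43 (-1.74 ± 0.17 SE, adjusted p = 6.7e-04). Krt19, Krt7, Epcam and Cftr stayed at 4 counts or fewer. Of 11 stellate cell markers tested, 7 fell with Rk1 and 0 rose in edgeR's test, in DESeq2 or in limma-voom. Over all genes tested, 10.5% were lower and 11.5% higher in edgeR's test. The stellate cell markers that fell in that test included Col3a1, Tagln, Col1a1, Lum and Dcn. At an unadjusted p under 0.05, 1 of these stellate cell markers was higher, Des (0.37 ± 0.15), and 8 were lower.

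Most members rose with Rk1. In edgeR's quasi-likelihood test on all 12316 genes that passed the count filter, 25 of 33 members rose and 2 fell past the threshold of 0.05 on the adjusted p (Benjamini-Hochberg over all genes tested), and 6 did not pass. Over all genes tested, 11.5% were higher and 10.5% lower, or 22% in either direction. The median log2 fold change of the members was 0.34, a 1.27-fold rise, against 0.00 for all genes tested. In bulk RNA, a larger share of cells that express a gene and more of its RNA per cell cannot be told apart. Log2 fold changes were positive for 31 of 33 members, or 93.9%, against 50.3% of all genes tested. In every one of the 33 the 2 Rk1 libraries lay on one side of the 2 untreated libraries, 31 above and 2 below. Such a separation was seen in 63% of all genes tested, with 32.1% above and 30.9% below. The members' summed level was 6920 and 6749 CPM in untreated replicates 1 and 2, and 9121 and 9007 CPM in Rk1 replicates 1 and 2. They took 0.676% to 0.688% of all counts untreated and 0.906% to 0.910% with Rk1.

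**Figure D1:**
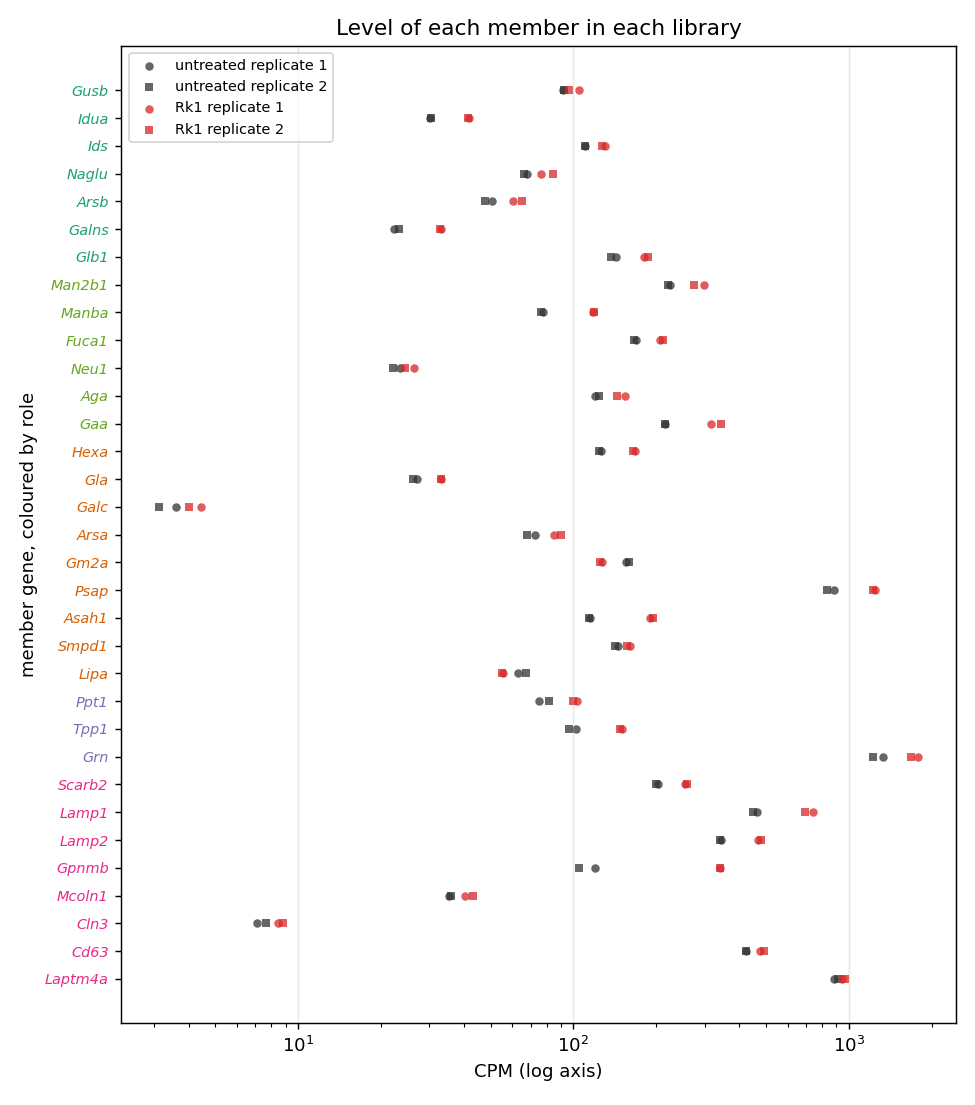
Level of each of the 33 members in each of the 4 libraries, in CPM on a log axis, with circles for replicate 1 and squares for replicate 2 and gene names coloured by role. The 2 treated libraries lie to the right of both untreated ones for 31 members and to the left for Gm2a and Lipa.

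The medians of enzymes and membrane proteins were close, and the latter held the member with the largest change. Of the 22 enzymes and activators, 16 rose and 2 fell, with a median log2 fold change of 0.32 and a range of -0.32 to 0.75. Of the 8 membrane proteins, 6 rose and 0 fell in edgeR's test, with a median of 0.29 and a range of 0.09 to 1.60. At an unadjusted p under 0.05 no membrane protein was lower and 7 were higher, and DESeq2 and limma-voom called 5 and 6 higher and 0 lower. The difference between the 2 sets was not tested. Summed levels were 2934 and 2869 CPM untreated and 3812 and 3794 CPM with Rk1 for the enzymes. They were 2482 and 2474 CPM untreated and 3277 and 3286 CPM with Rk1 for the membrane proteins.

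Per kilobase of exon, untreated levels ran from 1.37 CPM per kb for Galc to 641 for Laptm4a. After Laptm4a came Grn at 547, Cd63 at 395 and Psap at 335 CPM per kb, and Lamp2 and Lamp1 followed at 196 and 194. With Rk1, Grn stood first at 740.4 CPM per kb and Laptm4a next at 684. The lowest levels were those of Galc, Galns (3.94 CPM per kb untreated) and Cln3 (4.40). Laptm4a, first by untreated level, had the log2 fold change nearest to 0 of the 33 (0.09), and Galns, second from last by level, had one of 0.53.

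Gpnmb, a glycosylated transmembrane protein of lysosomes, melanosomes and phagocytic cells, rose more than any other member. It stood at 119.6 and 105 CPM in the untreated libraries and 339 and 341 CPM with Rk1, so that the lowest treated value was far above the highest untreated one. The rise was 3.03-fold (log2 fold change 1.60 ± 0.06 SE, adjusted p = 2.1e-05), and in the order of log2 fold change Gpnmb was number 54 of the 12316 genes tested. Gpnmb (ENSRNOG00000008816) lies on chromosome 4, 78694447 to 78715683, in Rnor_6.0. Its rise was called in each of the 13 alternatives. No other member exceeded 0.75.

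The 2 LAMP proteins are the most abundant glycoproteins of the lysosomal membrane. Lamp1 was at 464 and 449 CPM untreated and 739.7 and 694 CPM with Rk1, a 1.57-fold rise (0.65 ± 0.05, adjusted p = 1.6e-04). Lamp2, whose splice forms also serve chaperone-mediated autophagy, was at 344 and 339.6 CPM untreated and 468 and 480.2 CPM with Rk1, and rose 1.39-fold (0.47 ± 0.04, adjusted p = 3.6e-04). Counts per gene do not separate the Lamp2 splice forms. The pair had close untreated levels per kilobase, and with Rk1 Lamp1 was at 305 against 271 CPM per kb. Whether their folds differ was not tested. In Rnor_6.0, Lamp1 (ENSRNOG00000019629) lies on chromosome 16, 81689335 to 81714419, and Lamp2 (ENSRNOG00000000164) on chromosome X, 124722628 to 124766044.

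Promoter sequences of 28 of the 35 symbols were found in RefSeq on assembly GRCr8, 27 of them for genes with counts and the other for Sgsh, which held 1 of the E-box matches counted here. Each covers 250 bases before and 50 bases after the gene start. The 6-base E-box CACGTG, a palindrome read alike on both strands, stood in 9 of the 28, or 32.1%, against 6.65% of the 27457 promoters in the table and 9.54% of those of genes tested. The longer TCACGTGA, which contains it, stood in 14.3% of members, 0.867% of all promoters and 1.81% of those of genes tested. The member shares were not the highest of the lysosomal lists. Among targeting and activation promoters, 38.1% held CACGTG and 28.6% held TCACGTGA. Among other lysosomal membrane protein promoters the shares were 23.3% and 13.3%. For MiT/TFE factors and regulators and for other hydrolases both shares lay below those of members, with 0% for TCACGTGA. Lamp1 held the most matches, 5 in 1 promoter, and Gpnmb held none. Gpnmb did hold TCACATGA, the M-box bound by MITF, a motif added after its sequence was seen. The 250 bases before each start show this contrast, with CACGTG, TCACGTGA and TCACATGA in capitals (Lamp1 at chr16:83075064-83075313, minus strand, and Gpnmb at chr4:79340878-79341127, plus strand, both GRCr8, written 5′ to 3′ along the gene).
Lamp1: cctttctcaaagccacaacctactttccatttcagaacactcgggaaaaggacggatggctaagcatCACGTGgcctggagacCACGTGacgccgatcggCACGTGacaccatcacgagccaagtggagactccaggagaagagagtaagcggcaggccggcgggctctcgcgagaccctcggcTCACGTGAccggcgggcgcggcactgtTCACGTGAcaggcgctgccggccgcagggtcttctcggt
Gpnmb: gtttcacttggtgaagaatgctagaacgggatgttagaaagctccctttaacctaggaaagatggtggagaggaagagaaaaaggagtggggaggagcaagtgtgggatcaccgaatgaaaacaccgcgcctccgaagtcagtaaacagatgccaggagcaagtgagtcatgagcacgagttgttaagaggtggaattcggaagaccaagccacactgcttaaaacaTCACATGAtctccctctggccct

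The Lamp1 matches begin 183, 167, 150, 65 and 38 bases before the start, and those at 65 and 38 have the 8-base form. The Gpnmb M-box begins 23 bases before the start. Counted on both strands, TCACATGA or its reverse complement stood in 17.9% of the 28 member promoters, 1.13% of all promoters and 0.938% of those of genes tested. It stood in 16.7% of other lysosomal membrane protein promoters and 14.3% of targeting and activation promoters. For MiT/TFE factors and regulators the share was 8.33%, and for other hydrolases 0%. The motif was added after member sequences were seen, Gpnmb among them, so the member share is not independent of that choice. These matches describe letters in a window and do not show that a factor binds there.

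Among the other members with counts, 7 held CACGTG. Stretches around the match show that the flanking bases vary. The 10-base CLEAR element, in which TCACGTGA is preceded by G and followed by C, was found in Galc alone among the 28 promoters. It is held by 0.277% of all promoters and 0.592% of those of genes tested. Among the other lysosomal lists, it stood in 19.0% of targeting and activation promoters, 3.33% of other membrane proteins and 0% of the rest. Each stretch is written along the gene with CACGTG or TCACGTGA in capitals, and Idua is shown up to 6 bases past its start, which lies within the match.
Glb1: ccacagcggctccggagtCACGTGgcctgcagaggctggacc
Gaa: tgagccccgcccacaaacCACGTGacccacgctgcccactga
Idua: ccaggcctggcgaatggtCACGTGggg
Galc: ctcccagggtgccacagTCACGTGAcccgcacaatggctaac
Cln3: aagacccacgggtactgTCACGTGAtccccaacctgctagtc
Mcoln1: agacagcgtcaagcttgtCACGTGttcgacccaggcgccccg
Cd63: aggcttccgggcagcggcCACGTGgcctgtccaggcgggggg

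Cln3 and Mcoln1 each held a further match. That of Mcoln1 lies just past the start and has the 8-base form, and that of Cln3 is the 6-base core alone. Of the 15 matches in all member promoters, 11 began within 100 bases of the start. The 8 members with CACGTG had a median log2 fold change of 0.36 (0.19 to 0.65), with 6 higher and 0 lower in edgeR's test. The 19 members with a promoter but no CACGTG had a median of 0.31 (-0.32 to 1.60), with 13 higher and 2 lower. The ranges overlap, and both members that fell, Gm2a and Lipa, lacked the motif in this window. The M-box, on either strand, was held by Gpnmb (log2 fold change 1.60), Tpp1 (0.58), Galns (0.53), Grn (0.44) and Cd63 (0.19). The motif was added after the Gpnmb sequence was seen, so the largest rise of the 33 is not an independent holder. Cd63 had one of the smallest rises. Of these 5, Cd63 alone held CACGTG as well. Tpp1, the member with 2 matches, has 1 on each strand, shown in capitals in the stretch that ends just before its start.
Tpp1: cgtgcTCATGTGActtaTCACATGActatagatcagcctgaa

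**Figure D2:**
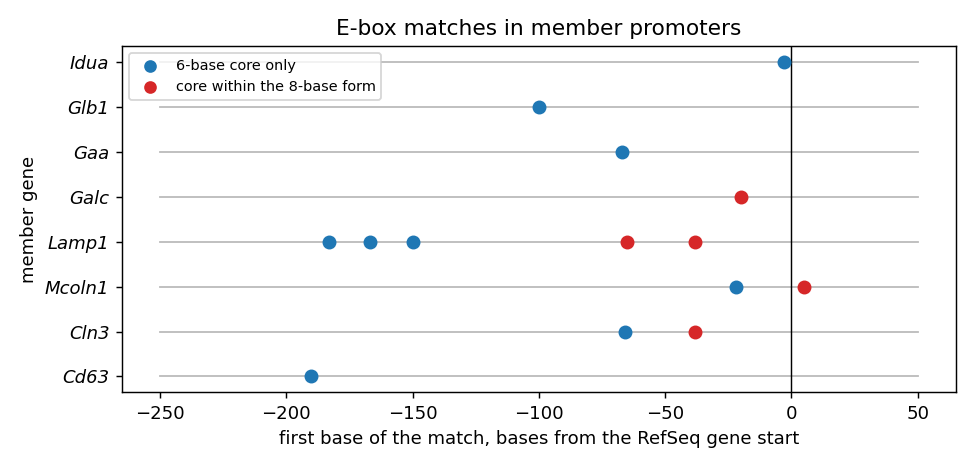
Position of each E-box match in the promoters of the 8 counted members that hold one, in bases from the RefSeq gene start (x axis, 250 before to 50 after, with negative values upstream), in red where the core lies within the 8-base form and in blue elsewhere. Lamp1 has 5 matches, Cln3 and Mcoln1 have 2 each and the other genes have 1.

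Scarb2 encodes LIMP-2, a membrane receptor that carries an enzyme to lysosomes. It stood at 203 and 200.1 CPM untreated and 254 and 257 CPM with Rk1, a rise of 0.34 ± 0.04 (adjusted p = 0.0015). Cd63, a tetraspanin of late endosomes and exosomes, rose by 0.19 ± 0.04, from 424 and 423 to 478 and 490.5 CPM (adjusted p = 0.014). Cd63 was not called without Rk1 replicate 2 or without either untreated library.

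Mcoln1, the lysosomal calcium channel TRPML1, was at 35.4 and 35.9 CPM untreated and 40.2 and 43.1 CPM with Rk1 (0.23 ± 0.06, adjusted p = 0.033). That call was lost by DESeq2, by upper-quartile scaling and without Rk1 replicate 2 or either untreated library. The remaining pair of membrane proteins did not pass. Cln3, mutated in juvenile Batten disease, was at 7.09 and 7.64 CPM untreated and 8.46 and 8.83 CPM with Rk1 (0.23 ± 0.12, adjusted p = 0.21), and rests on 139 to 161 counts a library. Laptm4a, a small transporter-like protein of late endosomes, was at 884 and 914 CPM untreated and 949 and 971 CPM with Rk1 (0.09 ± 0.04, adjusted p = 0.13).

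Glycosaminoglycan enzymes rose in 6 of 7 cases, with 0 lower in edgeR's test, in DESeq2, in limma-voom and at an unadjusted p under 0.05. Their median log2 fold change was 0.35. Heparan and dermatan sulfate are opened by Ids, the sulfatase missing in Hunter syndrome, and Idua, the iduronidase missing in Hurler syndrome. Ids was at 110.0 and 110.2 CPM untreated and 129.9 and 127 CPM with Rk1 (0.22 ± 0.04, adjusted p = 0.012). Idua was at 30.1 and 30.4 CPM untreated and 41.6 and 41.3 CPM with Rk1, a rise of 0.45 ± 0.06 (adjusted p = 0.0016). Within each group the Idua libraries differed by less than 1 CPM, against a gap of more than 10 CPM between groups. The call of Ids was lost without untreated replicate 2 and without Rk1 replicate 1. The deposited table places Ids on chromosome 8 in Rnor_6.0, whereas RefSeq places it on chromosome X in GRCr8.

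Further along heparan sulfate, Naglu removes N-acetylglucosamine and was at 67.7 and 66.1 CPM untreated and 76.3 and 84.3 CPM with Rk1 (0.26 ± 0.06, adjusted p = 0.019). It was not called without untreated replicate 2 or without Rk1 replicate 2. Gusb, the beta-glucuronidase that acts on several glycosaminoglycans, was at 91.3 and 92.6 CPM untreated and 104 and 96.1 CPM with Rk1 and missed the threshold (0.12 ± 0.05, adjusted p = 0.14). Its treated libraries differed from each other by more than the lower one differed from the untreated libraries. For dermatan sulfate, the sulfatase Arsb rose from 50.6 and 47.8 to 60.6 and 65.3 CPM (0.35 ± 0.06, adjusted p = 0.0058).

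Keratan sulfate is degraded by Galns and Glb1, the enzymes missing in the Morquio syndromes. Galns had the largest log2 fold change of the group and rose from 22.3 and 23.3 to 33.2 and 32.9 CPM (0.53 ± 0.07, adjusted p = 0.0017). Glb1, the beta-galactosidase that also cleaves the ganglioside GM1, rose from 142 and 137 to 181 and 187 CPM (0.40 ± 0.05, adjusted p = 0.0012). For both genes all treated values lay well above the untreated ones.

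Of the 6 glycoprotein and glycogen enzymes, 5 rose and 0 fell, and 0 were lower in DESeq2, in limma-voom or at an unadjusted p under 0.05. Manba and Gaa had the largest log2 fold changes. Manba, the beta-mannosidase, was at 77.5 and 76.3 CPM untreated and 118 and 119 CPM with Rk1, a 1.54-fold rise (0.62 ± 0.04, adjusted p = 1.6e-04). Gaa, the acid alpha-glucosidase missing in Pompe disease, went from 215 and 214 to 315 and 343 CPM, 1.53-fold (0.62 ± 0.05, adjusted p = 3.1e-04). Each gene's untreated libraries lay within 2 CPM of each other.

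The other enzymes of this group had smaller log2 fold changes. Man2b1, the alpha-mannosidase, rose from 225 and 219.8 to 297 and 274 CPM (0.36 ± 0.05). Fuca1, which removes fucose, rose from 169 and 166 to 206 and 211 CPM (0.32 ± 0.04). Aga, which cuts the bond between glycan and asparagine, rose from 119.8 and 123 to 154 and 144 CPM (0.29 ± 0.05), and the 3 had adjusted p-values of 0.003, 0.0025 and 0.0063. Neu1, the sialidase that starts the removal of sialylated glycans, was at 23.5 and 22.1 CPM untreated and 26.4 and 24.4 CPM with Rk1, short of the threshold (0.16 ± 0.08, adjusted p = 0.21).

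Sphingolipid and lipid genes were the only role group with members that fell, with 5 of 9 higher, 2 lower and 2 that did not pass. Asah1, the acid ceramidase that turns ceramide into sphingosine, had the largest rise of any hydrolase here. It stood at 115 and 114 CPM untreated and 190.2 and 194 CPM with Rk1, a 1.68-fold rise (0.75 ± 0.04, adjusted p = 6.9e-05). Asah1 (ENSRNOG00000010034) lies on chromosome 16, 53998560 to 54040836, in Rnor_6.0, and overlaps the opposite-strand gene Pcm1 over 116 bases. Whether reads were counted by strand is not given in the sources used here. Pcm1 itself had a log2 fold change of -0.03 (adjusted p = 0.68). Other members overlap annotated genes as well. Gusb and Idua overlap the opposite-strand genes Vkorc1l1 and Slc26a1 over 5071 and 5607 bases. Lamp1 and Arsb overlap same-strand genes over 401 and 129 bases. These overlapping genes had at most 14 counts in any library.

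Psap encodes prosaposin, the precursor of the saposins that present sphingolipids to their enzymes. It was at 883 and 836 CPM untreated and 1245 and 1222 CPM with Rk1 (0.52 ± 0.04, adjusted p = 2.6e-04). Gm2a encodes the other activator, which presents ganglioside GM2 to its enzyme, and it went the opposite way. It fell from 155 and 159.8 to 127 and 124 CPM (log2 fold change -0.32 ± 0.04, adjusted p = 0.0028), and the fall held in each of the 13 alternatives. Hexa, the alpha subunit of that enzyme, rose from 126 and 124 to 167 and 164 CPM (0.41 ± 0.04, adjusted p = 8.6e-04). So Hexa rose and the activator fell in the same libraries. Gm2a (ENSRNOG00000052219) lies on chromosome 10, 40438356 to 40450930, and Hexa (ENSRNOG00000010252) on chromosome 8, 64325435 to 64350773, both in Rnor_6.0.

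Arsa, which removes sulfate from sulfatide and is lost in metachromatic leukodystrophy, rose from 72.4 and 67.8 to 85.3 and 89.9 CPM (0.32 ± 0.05, adjusted p = 0.0063). Gla, the alpha-galactosidase of Fabry disease, rose from 27.0 and 26.2 to 33.1 and 33.0 CPM (0.31 ± 0.06, adjusted p = 0.012), but was not called by DESeq2 or without untreated replicate 2. Galc, the galactosylceramidase of Krabbe disease, was at 3.596 and 3.13 CPM untreated and 4.45 and 4.01 CPM with Rk1, short of the threshold (0.33 ± 0.18, adjusted p = 0.24). Galc had the fewest counts of any member, 73 and 57 untreated and 80 and 73 with Rk1. Smpd1, the acid sphingomyelinase, was at 145 and 142 CPM untreated and 161 and 157 CPM with Rk1 and just missed the threshold (0.15 ± 0.04, adjusted p = 0.052). It was called in 3 of the 13 alternatives.

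Lipa encodes lysosomal acid lipase, which hydrolyses cholesteryl esters and triglycerides taken up with lipoproteins. It was at 62.9 and 67.1 CPM untreated and 55.4 and 55.2 CPM with Rk1 (-0.23 ± 0.05, adjusted p = 0.019). The fall was not called by DESeq2 or without untreated replicate 2, Rk1 replicate 1 or Rk1 replicate 2. Lipa (ENSRNOG00000019077) lies on chromosome 1, 252816527 to 252849904, in Rnor_6.0.

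**Figure D3:**
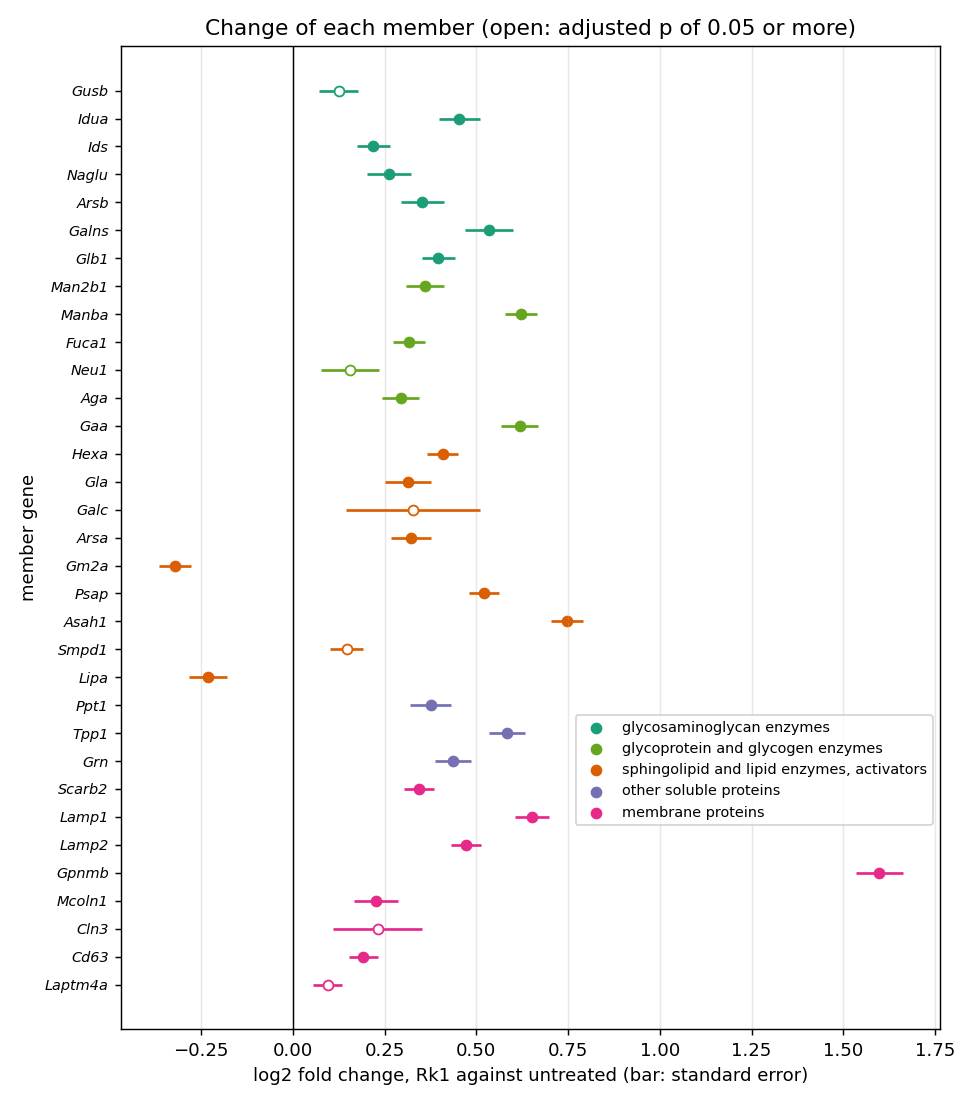
Log2 fold change of each of the 33 members, Rk1 against untreated, with its standard error, coloured by role, with open points at an adjusted p of 0.05 or more. Gpnmb stands alone at 1.60, Gm2a and Lipa lie below 0 and the other members lie between 0.09 and 0.75.

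The 3 other soluble members all rose. Grn encodes progranulin, a secreted and lysosomal protein that is cut into granulins and supports lysosomal enzymes. It was at 1328 and 1228 CPM untreated and 1778 and 1679 CPM with Rk1 (0.44 ± 0.05, adjusted p = 0.0012). Tpp1, a tripeptidyl peptidase lost in late infantile Batten disease, rose from 102 and 96.6 to 151 and 147 CPM (0.58 ± 0.05, adjusted p = 3.0e-04). Ppt1, which removes palmitate from proteins, rose from 74.98 and 81.7 to 103 and 99.8 CPM (0.38 ± 0.06, adjusted p = 0.0038). In none of the 3 did a treated library fall among the untreated ones.

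The libraries of a group were alike in these genes. After centring each member on its mean over the 4 libraries on the log2 scale, the median member stood at -0.16 and -0.20 in untreated replicates 1 and 2 and at 0.17 and 0.18 in Rk1 replicates 1 and 2. The gap between groups was thus several times the gap within either group.

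Other lysosomal genes were read from lists of the same pathway. Of 21 other hydrolase and soluble protein genes tested, 9 rose and 1, Smpdl3b, fell (-0.26 ± 0.07), and their median log2 fold change was 0.17. The 5 with the smallest adjusted p, from 2.0e-04 to 0.018, all rose. They were Npc2, which binds cholesterol inside lysosomes (0.65 ± 0.05), Ctsa, which protects Glb1 and Neu1 in 1 complex (0.51 ± 0.05), the carboxypeptidase Scpep1 (0.39 ± 0.04), the acid DNase Dnase2 (0.29 ± 0.05) and Plbd2 (0.24 ± 0.05). The Ctsa transcript stood at 254 and 238 CPM untreated and 353 and 348 CPM with Rk1. Of the genes encoding that complex, Glb1 and Ctsa were called higher and Neu1 was not. The risen hydrolases numbered 5 by DESeq2, 5 without untreated replicate 1, 5 without untreated replicate 2 and 4 without Rk1 replicate 2, with 6 without Rk1 replicate 1. Smpdl3b was not called by DESeq2, without either untreated library or without Rk1 replicate 2.

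Of 29 other lysosomal membrane proteins tested, 18 rose and 1, the channel Tpcn2, fell (-0.30 ± 0.08), with a median of 0.31. Npc1, which exports cholesterol, rose most (0.97 ± 0.05), followed in adjusted p by the cobalamin exporter Lmbrd1 (0.65 ± 0.05), Tmem106b (0.58 ± 0.05), which controls lysosome size and movement, the lipid transporter Abca2 (0.50 ± 0.05) and Glmp (0.46 ± 0.05). Only 10 rose without untreated replicate 2, 12 rose by DESeq2, and Tpcn2 was not called in any fit that left out a library or by DESeq2.

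Among 24 targeting and activation genes, 9 rose and 2 fell, with a median of 0.15. Sumf1, the enzyme that activates every sulfatase, among them Ids, Arsa, Arsb and Galns, rose from 40.6 and 42.6 to 59.4 and 59.6 CPM (0.52 ± 0.05, adjusted p = 6.5e-04). Rab7a, the small GTPase of late endosomes (0.33 ± 0.04), Vps41 of the HOPS tethering complex (0.32 ± 0.05) and Vps35 of retromer (0.21 ± 0.04) also rose. The genes that fell were the clathrin adaptor Gga2 (-0.36 ± 0.07) and Cln6 (-0.19 ± 0.05), an endoplasmic reticulum protein that passes hydrolases on. Named after their values were seen, Gnptab, which makes the mannose 6-phosphate tag, did not pass (0.09 ± 0.05, adjusted p = 0.21), nor did the receptor Igf2r (0.09 ± 0.04, adjusted p = 0.16). The risen count was 5 by DESeq2, without untreated replicate 1 or without untreated replicate 2. Without untreated replicate 2 the fallen count was 0. It was 1 by DESeq2, by limma-voom or without Rk1 replicate 1.

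Of 13 MiT/TFE factors, their regulators and competing E-box factors, 5 rose and 0 fell in edgeR's test, with 6 higher and 0 lower at an unadjusted p under 0.05, 4 and 0 by DESeq2 and 5 and 0 by limma-voom. The folliculin complex genes Flcn (0.58 ± 0.07) and Fnip2 (0.69 ± 0.08), which act on TFEB through the Rag GTPases, rose, as did Rragc (0.24 ± 0.04), which encodes 1 of those GTPases. Bhlhe40 (1.73 ± 0.06) and Bhlhe41 (0.74 ± 0.18), repressors that bind CACGTG, rose as well. Transcripts of the factors themselves, named after their values were seen, did not pass. Tfeb was at 18.5 and 17.4 CPM untreated and 17.1 and 17.01 CPM with Rk1 (-0.08 ± 0.08, adjusted p = 0.56), Tfe3 at 43.1 and 41.7 CPM untreated and 47.5 and 46.7 CPM with Rk1 (0.15 ± 0.05, adjusted p = 0.075) and Mitf at 17.3 and 19.7 CPM untreated and 19.4 and 21.3 CPM with Rk1 (0.13 ± 0.10, adjusted p = 0.37). Transcript levels do not report where these proteins are in the cell.

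**Figure D4:**
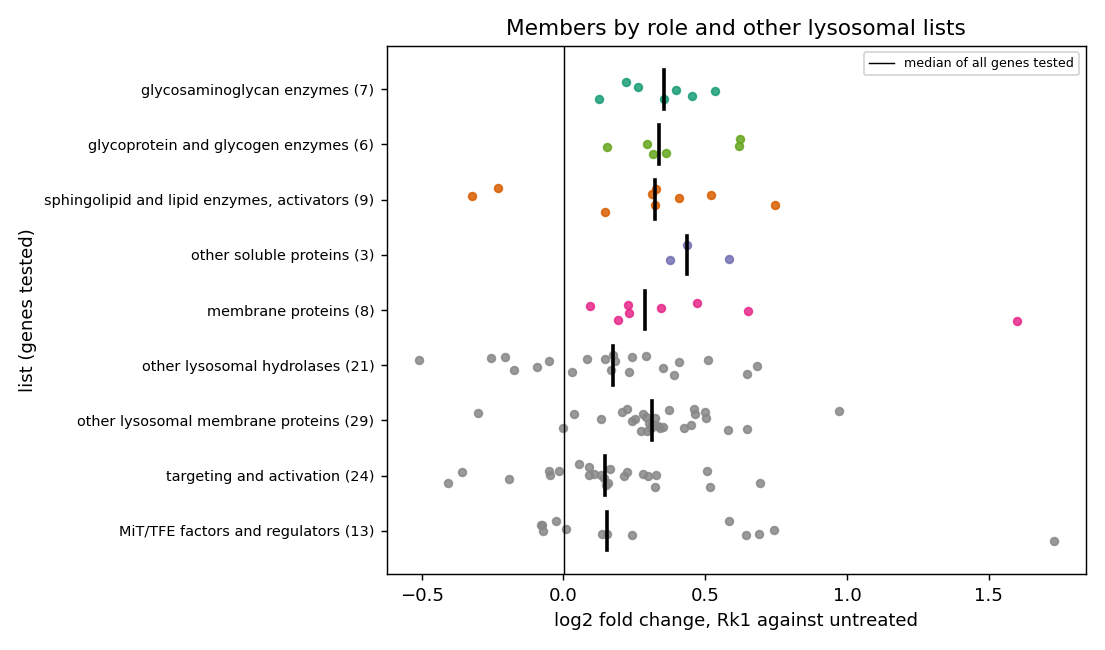
Log2 fold changes of the members by role (coloured) and of 4 other lysosomal lists (grey), with the list median as a short black bar and the median of all 12316 genes tested, 0.00, as a vertical line. The medians of the 5 member groups lie between 0.29 and 0.44. The medians of the 4 other lists lie between 0.15 and 0.31.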

How the data were processed

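RNA sequencing counts of 4 HSC-T6 libraries were analysed, grouped by treatment in the labels. Per the submitters' processing notes the tools were HISAT2 and HTSeq. Their versions, strand setting and multi-mapping rules were not given in the sources used here. Raw counts, 1 row per Ensembl gene, were deposited by the authors with symbols, exon lengths (column unit: other, in bases) and Rnor_6.0 positions, per the file headers. Genes passing filterByExpr (minimum count 10, minimum total 15) numbered 12316. Libraries were scaled by TMM, and edgeR 4.0.16 fitted the quasi-likelihood model with treatment alone in the design (2 residual degrees of freedom), two-sided, adjusted over all genes tested by Benjamini-Hochberg with a threshold of 0.05. The standard error is the log2 fold change over the root of F. Alternatives used DESeq2 1.42.0, limma 3.58.1 (voom), other scalings and filters, robust dispersions, a replicate block and each library left out.

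Members and lists were chosen with earlier results of these data known. Some other hydrolase genes are not reported here and were left out of their list's counts. Named genes were all members and, from each other list, up to 5 called genes with the smallest adjusted p. The rule also allowed naming the genes behind small counts (at most 5), which is why Smpdl3b, Tpcn2 and Cln6 appear as genes that fell. Gene names come from the table, and promoters from RefSeq on GRCr8 were matched by symbol. Replicates were separate libraries by their counts, with a chi-square of 3.69 (untreated) and 3.76 (Rk1) per degree of freedom, where sampling noise alone gives 1. On simulated data for this comparison, with 200 of 12316 genes changed, the steps recovered 38% at 1.25-fold, 88% at 1.5-fold and 100% at 2-fold. The changed genes had a mean of at least 100 counts, and every gene was given the same dispersion. These rates therefore do not cover members with fewer counts, such as Galc. In the data 22% of genes tested were called, a larger share than was changed in the simulation. Adjusted p-values depend on that share, so recovery in the data may differ from these rates. The 3-count floor covers counting error only.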

Additional observations from a re-analysis of the deposited data

How the results depend on the processing

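No member changed direction in any of the 13 alternatives. Of the 27 called members, 21 stayed called in all 13, and Cd63, Gla, Ids, Lipa, Mcoln1 and Naglu were lost in at least 1. Members called higher ranged from 20 to 24 when a library was left out, and those called lower from 1 to 2, with 1 by DESeq2. The members' median was 0.32 with upper-quartile scaling and 0.31 to 0.37 without a library. Among enzymes, 13 to 16 were higher and 1 to 2 lower without a library, with 1 lower by DESeq2. Membrane proteins called higher numbered 4 to 6 without a library. Other hydrolases called higher numbered 5 by DESeq2 and 4 to 6 without a library, and those called lower 2 with upper-quartile scaling, 0 by DESeq2, 2 with the replicate block and 0 to 1 without a library. Other membrane proteins called higher numbered 10 to 14 without a library, and those called lower 0 by DESeq2 and 0 without any library. Targeting genes called higher numbered 5 by DESeq2 and 5 to 7 without a library, and those called lower 1 by DESeq2, 1 by limma-voom and 0 to 2 without a library. The cause of these shifts was not tested, though leaving out a library also leaves fewer samples, and the lone library of its group is then assumed to vary like the other group. With the replicate number as a block, 26 members were higher and 2 lower, with a median of 0.34. Over all genes tested the block gave 1676 higher and 1538 lower, more than without it. The labels do not say whether same-numbered libraries were prepared together, and the correlation of their deviations was 0.059. Over all genes the calls fell from 1422 higher and 1289 lower to 859 and 853 by DESeq2 and to 824 and 886 without untreated replicate 2. Galc and Cln3 had the fewest counts of the members.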
